A study of Homo sapiens with 24 samples.

Results

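EPZ015666, a small molecule that occupies the substrate pocket of the protein arginine methyltransferase PRMT5, was compared with its vehicle DMSO after 5 days of treatment in 4 human cancer cell lines, and the change shared by the lines was taken gene by gene. The members were all 16 day 5 libraries of the 24 libraries of the study: 8 from cells that received 5 µM EPZ015666 and 8 from cells that received DMSO. BT549 and MDAMB436 are breast cancer lines, and OVCAR8 and COV362 are ovarian cancer lines. Each line had 2 EPZ015666 libraries and 2 DMSO libraries, named A and B, made from poly(A) RNA by a stranded protocol. The other 8 libraries are the same 2 treatments of BT549 and OVCAR8 at day 3, with DMSO libraries of their own, and are used here only to set the earlier change beside the day 5 change. The labels name no introduced genetic alteration in any group. Nothing in the labels says if A and B are separate cultures or repeats of 1 culture. The p-values therefore rest on a spread from library to library that may be technical, together with the spread of the drug effect between lines.

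PRMT5 places symmetric dimethylation on arginines and acts in a complex with WDR77. Its substrates include the Sm proteins that package small nuclear RNAs, and CLNS1A, COPRS and RIOK1 are adaptors that bring substrates to it. Loss of PRMT5 activity is known to impair the assembly of spliceosomal particles and to alter the splicing of transcripts such as that of MDM4, an inhibitor of p53. The expression values here are totals per gene and do not separate isoforms.

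Values are RPKM, read counts divided by gene length and by the size of the library. The lengths behind them are whole gene spans with introns, so a gene with long introns has a low RPKM. Of the 16591 symbols in the table, 4702 had a mean of at least 1 RPKM over the 4 day 5 libraries of each line and were tested. The shared change is the mean over the 4 lines of EPZ015666 minus DMSO on log2(RPKM + 1), from a limma fit with the line as a block, given ± SE. On this scale the fold change of a gene with a low RPKM is understated. Recovered read totals ran from 23.89 M to 44.94 M per day 5 library, with a median of 28.86 M. Ribosomal RNA loci held 4.541% of the reads of library B of EPZ015666-treated OVCAR8, against a median of 0.304% over the day 5 libraries. Without that library the counts of shared calls were 1109 higher and 1218 lower. The line labels were set against markers, and several were absent or low. Of the epithelial markers, KRT18 was at 7.52 RPKM or more in each line, but in BT549 EPCAM reached 0.000942, KRT8 0.0499 and KRT19 0.136 RPKM. The breast marker GATA3 was at 4.21 to 4.79 RPKM in BT549 and at most 0.066 RPKM in MDAMB436. The Mullerian marker PAX8 was at most 0.354 RPKM in COV362 and 0.095 RPKM in OVCAR8. WT1 was at most 0.208 and 0.0622 RPKM in these lines, and MUC16 reached 0.712 RPKM in COV362. MSLN, of the same kind, was at 4.67 to 22.9 RPKM in COV362 and 6.75 to 48 RPKM in OVCAR8. KRT8 was at 15 to 22.8 RPKM in COV362 and 22.8 to 26.1 RPKM in OVCAR8. KRT19 was at 29.7 to 38.3 RPKM in COV362 and at most 0.0351 RPKM in OVCAR8. Of markers of other cell types, PTPRC, CD3E, LYZ, VWF and DCN are not listed in the table, while COL1A1 was at 42.9 to 59 RPKM in BT549 and 49 to 56.1 RPKM in OVCAR8. PDGFRB reached 1.87 RPKM in OVCAR8, CD14 was at 3.33 to 4.93 RPKM in MDAMB436, and CDH5 reached 1.01 RPKM in COV362. The part of these markers in the results was not tested.

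Of the 4702 genes, 1115 were higher under EPZ015666 (23.7%) and 1288 were lower (27.4%), at a limma adjusted p under 0.05. The changes were small on log2(RPKM + 1), a scale that understates the fold change of genes with a low RPKM. None of the higher genes reached a 2-fold mean change on this scale, and 12 of the lower genes did. Folds of RPKM itself were larger for some genes whose values are given below, such as TGM2. A mean change of at least 0.5 log2 was seen in 42 higher and 143 lower genes. A stricter count took the genes in which both EPZ015666 libraries lay beyond both DMSO libraries in each of the 4 lines. There were 465 such genes on the higher side (9.89%) and 682 on the lower side (14.5%), with median shared changes of 0.23 and -0.32 log2. In bulk RNA, a change in the share of cells that express a gene cannot be told apart from a change in RNA per cell.

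The direction alone was less selective. The mean change had the same sign in each line for 780 higher genes (16.6%) and 1003 lower genes (21.3%). Of the 1115 genes called higher, 376 went the other way in at least 1 line, as did 310 of the 1288 called lower. Each line tested by itself had more calls than the shared effect on at least 1 side. BT549 had 1320 higher (28.1%) and 1450 lower genes (30.8%), and OVCAR8 had 1086 higher (23.1%) and 1814 lower (38.6%). COV362 had 1876 higher (39.9%) and 1422 lower genes (30.2%), and MDAMB436 had 1112 higher (23.6%) and 1482 lower (31.5%). A total of 231 genes passed upwards and 467 downwards in all 4 lines singly. With the 4 line differences taken as the only units of replication, 134 genes were higher and 362 lower. Across genes, which are not independent, the changes of 2 lines correlated at Pearson's r of 0.387 (OVCAR8 and MDAMB436) to 0.564 (BT549 and OVCAR8).

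The 2 largest mean falls were those of IFI6, an interferon-stimulated gene, and AGRN. AGRN, at chr1:1020123-1056118 on GRCh38, encodes agrin, a heparan sulfate proteoglycan of basement membranes. It had 1.48 and 1.51 RPKM in EPZ015666-treated BT549, against 8.39 and 9.05 RPKM with DMSO, and 3.66 and 4.04 RPKM in EPZ015666-treated OVCAR8, against 15.3 and 16.1 RPKM with DMSO. In the other 2 lines it had 5.17 and 5.05 RPKM in EPZ015666-treated COV362, against 14.3 and 14.9 RPKM with DMSO, and 5.41 and 5.71 RPKM in EPZ015666-treated MDAMB436, against 13.3 and 12.1 RPKM with DMSO. No EPZ015666 library reached a DMSO library of the same line, and the mean change was -1.54 ± 0.0985 log2 (limma adjusted p = 3.34e-08). The fall was steeper in BT549, at -1.96 log2, than in MDAMB436, at -1.06 log2, and the F test of the difference between lines gave an adjusted p of 6.52e-06.

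MFSD3, at chr8:144509074-144511213, encodes a transporter of the major facilitator superfamily and fell by a like amount in each line. It had 5.21 and 5.49 RPKM in EPZ015666-treated BT549, against 14.5 and 16.5 RPKM with DMSO, and 22.3 and 24.6 RPKM in EPZ015666-treated OVCAR8, against 56.7 and 59.5 RPKM with DMSO. In COV362 and MDAMB436 the values were 6.04 and 5.14 RPKM in EPZ015666-treated COV362, against 14.7 and 14.8 RPKM with DMSO, and 6.07 and 7.54 RPKM in EPZ015666-treated MDAMB436, against 19.6 and 17.9 RPKM with DMSO. OVCAR8 had the highest level under either treatment, yet the change lay between -1.37 and -1.26 log2 in all 4 lines. The shared change was -1.31 ± 0.0483 log2 (limma adjusted p = 2.52e-10), and the difference between lines did not pass the F test (adjusted p = 0.807). NAPRT, on the same chromosome, which makes NAD from nicotinic acid, and GPAA1, also on this chromosome and a subunit of the enzyme that attaches GPI anchors, changed by -1.21 ± 0.124 and -1.12 ± 0.0670 log2.

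The other large falls joined several functions. ACADVL, the first enzyme of mitochondrial oxidation of very long chain fatty acids, changed by -1.17 ± 0.119 log2, most in OVCAR8 (-1.88) and least in COV362 (-0.74). ACTR1B, a dynactin subunit, changed by -1.02 ± 0.0580 log2, and NT5C, a cytosolic nucleotidase, by -0.94 ± 0.0833 log2. HCFC1R1, at -0.85 ± 0.0505 log2, and FKBP10, a collagen chaperone at -0.84 ± 0.0345 log2, were among the 8 falls that were largest in their weakest line. All of these genes had limma adjusted p-values under the threshold and no overlap between treatments in any line.

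**Figure D1:**
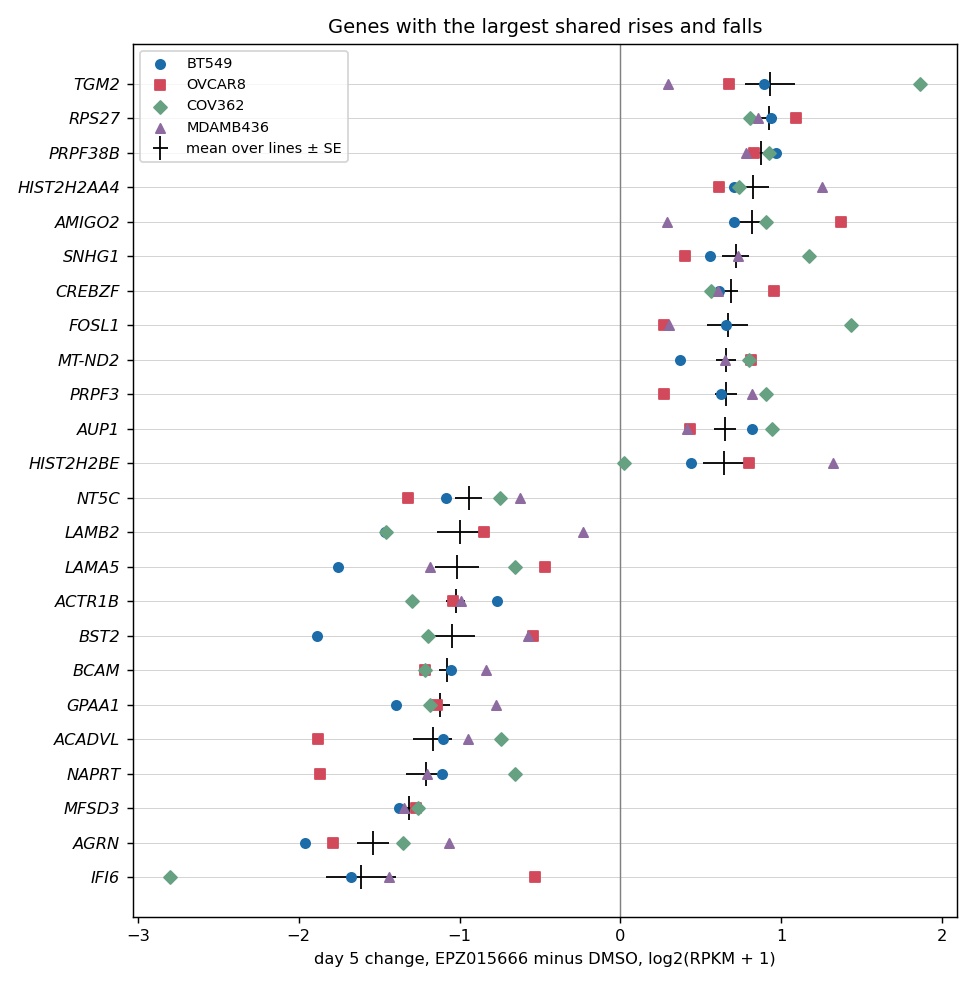
Day 5 change, EPZ015666 minus DMSO on log2(RPKM + 1), of the 12 largest shared rises and the 12 largest shared falls. Coloured points are the 4 lines (2 libraries per treatment each) and the black tick with its bar is the mean over lines ± SE. MFSD3, PRPF38B and RPS27 have tight points, whereas IFI6, BST2, TGM2 and FOSL1 are spread over more than 1 log2.

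Laminin genes and laminin receptors were also lower. Of 11 tested genes of the basement membrane list, 8 were lower and none higher, and 7 of the 8 had no overlap between treatments in any line, against 27.4% lower and 14.5% lower without overlap among all tested genes. Taking the lines as the only units left 5 lower. The list held 23 genes, of which 11 passed the limit of 1 RPKM in each line. Like the other lists, it was written with earlier results of these data known. AGRN, BCAM, LAMA5 and LAMB2 are also among the 12 largest mean falls, so the counts describe these genes and are no separate test. The median of the list was -0.15 log2, against -0.00237 log2 for all tested genes. LAMA5 and LAMB2, chains of laminin trimers, changed by -1.02 ± 0.136 and -1.0 ± 0.137 log2, while LAMB1 and LAMC1 changed by -0.15 ± 0.0253 and -0.13 ± 0.0379 log2. BCAM, a receptor for the LAMA5 chain, changed by -1.08 ± 0.0508 log2, and ITGA3, the alpha subunit of a laminin-binding integrin, by -0.77 ± 0.0325 log2. The beta subunit ITGB1 was not past the threshold, at -0.05 ± 0.0374 log2 (adjusted p = 0.296), and neither were the syndecans SDC1 and SDC4. COL6A1 and COL6A2, chains of type VI collagen, were also lower, with changes of -0.61 ± 0.0636 and -0.71 ± 0.0551 log2. The list was GC-rich: its median transcript GC was 59.2%, against 52.2% for all tested genes. After a correction of each library for GC and gene span, 9 of the 11 were lower and none higher.

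The interferon-stimulated genes that could be tested were mostly lower. The list held 30 genes, of which 22 had values and 9 passed the limit of 1 RPKM in each line. Of 9 tested, 8 were lower and none higher at day 5, and 6 of these had no overlap between treatments in any line. Of all tested genes 27.4% were lower, and 14.5% were lower without overlap. With the lines as the only units, 6 of the 9 were lower. The median of the list was -0.81 log2. By line it was -0.62 in BT549, -0.53 in OVCAR8, -1.20 in COV362 and -0.46 in MDAMB436. IFI6, at chr1:27666061-27672218, encodes a small mitochondrial protein induced by type I interferon. It had 11.1 and 10.3 RPKM in EPZ015666-treated BT549, against 36.3 and 36.4 RPKM with DMSO, and 6.03 and 6.05 RPKM in EPZ015666-treated OVCAR8, against 9.23 and 9.1 RPKM with DMSO. In the other 2 lines the values were 3.12 and 2.9 RPKM in EPZ015666-treated COV362, against 25.4 and 28.4 RPKM with DMSO, and 5.03 and 5.77 RPKM in EPZ015666-treated MDAMB436, against 17.4 and 15.2 RPKM with DMSO. The EPZ015666 and DMSO libraries did not overlap in any line, with a mean change of -1.61 ± 0.217 log2 (limma adjusted p = 3.57e-05), and the fall ran from -0.53 log2 in OVCAR8 to -2.8 log2 in COV362.

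BST2, at chr19:17402939-17405648, encodes tetherin, which holds enveloped virus particles at the cell surface. It had 1.35 and 1.37 RPKM in EPZ015666-treated BT549, against 7.29 and 8.18 RPKM with DMSO, and 51.8 and 52.4 RPKM in EPZ015666-treated OVCAR8, against 79.3 and 73.9 RPKM with DMSO. In COV362 and MDAMB436 it had 92.4 and 92.1 RPKM in EPZ015666-treated COV362, against 209 and 217 RPKM with DMSO, and 87 and 85.2 RPKM in EPZ015666-treated MDAMB436, against 133 and 124 RPKM with DMSO. BT549 had the lowest level and the steepest fall, -1.88 log2, and the mean over lines was -1.05 ± 0.149 log2 (limma adjusted p = 5.38e-05). IFI44 changed by -0.91 ± 0.110 log2 and IFI35 by -0.81 ± 0.0910 log2, both without overlap in any line. ISG15, a ubiquitin-like modifier, changed by -0.81 ± 0.135 log2, but in MDAMB436 its change was -0.08 log2 and not past the threshold (adjusted p = 0.257). Of the transcription factors of the pathway, IRF7 changed by -0.60 ± 0.0671 and STAT2 by -0.33 ± 0.0632 log2. DTX3L, a ubiquitin ligase, was at -0.25 ± 0.104 log2 and not past the threshold (adjusted p = 0.0562). The median transcript GC of the list was 56.2%, and after the correction for GC and gene span all 9 genes were lower.

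MHC class I genes, which interferon also induces, were lower as well. The list of antigen presentation held 14 genes, of which 11 had values and 7 passed the limit. Of 7 tested genes of antigen presentation, 6 were lower and none higher (27.4% of all tested genes were lower), 5 of them without overlap in any line (14.5%), with a median of -0.53 log2. Taking the lines as the only units left 4 lower. The heavy chains HLA-B, HLA-C and HLA-E changed by -0.54 ± 0.0284, -0.59 ± 0.0669 and -0.42 ± 0.0763 log2. PSMB8, a catalytic subunit of the immunoproteasome, changed by -0.63 ± 0.0414 log2, and TAPBP, which loads peptides, by -0.30 ± 0.0604 log2. The light chain B2M went both ways and was not past the threshold over the lines, at -0.20 ± 0.0989 log2 (adjusted p = 0.103): it was -0.57 log2 in COV362 and 0.23 log2 in OVCAR8. HLA genes resemble each other, and how reads shared between them were counted is not given in the sources used here.

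**Figure D2:**
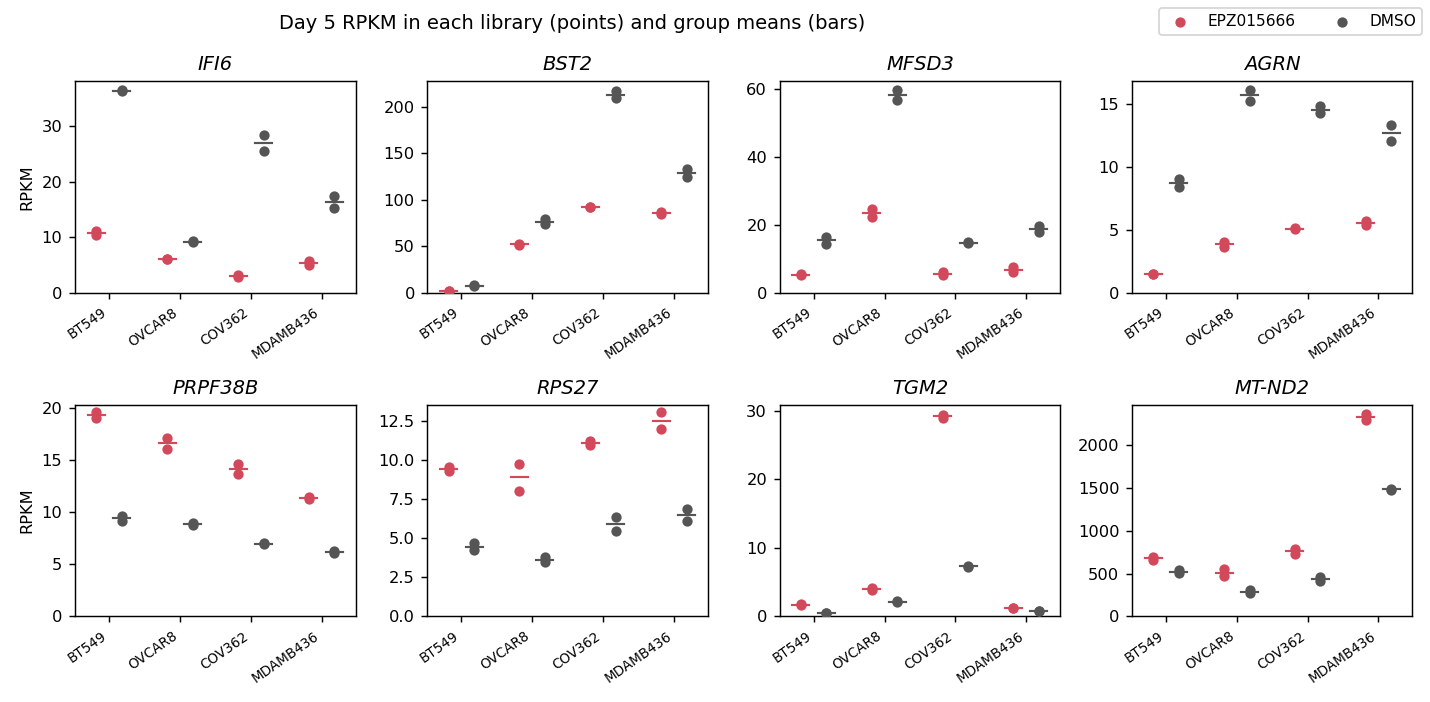
RPKM at day 5 in every library of 8 genes, with EPZ015666 (red) to the left of DMSO (grey) in each line. Points are libraries and bars are group means of 2. The 4 genes in the upper row are lower and the 4 in the lower row are higher under EPZ015666 in each line. Levels differ several-fold between lines for genes such as BST2 and TGM2, and less for AGRN, PRPF38B and RPS27.

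Promoters of 4 interferon-stimulated genes are shown because these genes fell together and hold letters that occur in interferon-stimulated response elements. Each is the 250 bases before the gene start in RefSeq on GRCh38.p14, in the direction of the gene, with matches to the motif GAAANNGAAA on either strand in capitals. Overlapping matches run together.
IFI6 (chr1:27672193-27672442, minus strand): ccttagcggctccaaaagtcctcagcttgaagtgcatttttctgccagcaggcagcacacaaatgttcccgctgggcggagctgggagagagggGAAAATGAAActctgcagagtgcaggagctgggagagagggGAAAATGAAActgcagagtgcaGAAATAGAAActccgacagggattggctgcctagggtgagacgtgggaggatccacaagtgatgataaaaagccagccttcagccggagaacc
BST2 (chr19:17405631-17405880, minus strand): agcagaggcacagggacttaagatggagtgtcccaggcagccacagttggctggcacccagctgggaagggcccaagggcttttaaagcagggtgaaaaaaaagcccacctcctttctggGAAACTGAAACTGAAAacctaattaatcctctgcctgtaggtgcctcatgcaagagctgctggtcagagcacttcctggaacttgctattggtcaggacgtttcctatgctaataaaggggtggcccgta
ISG15 (chr1:1013247-1013496, plus strand): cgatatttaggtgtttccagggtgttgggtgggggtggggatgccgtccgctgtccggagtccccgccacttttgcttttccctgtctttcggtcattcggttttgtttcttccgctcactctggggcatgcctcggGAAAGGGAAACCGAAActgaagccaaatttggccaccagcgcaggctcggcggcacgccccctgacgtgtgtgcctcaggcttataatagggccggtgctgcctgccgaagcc
IFI44 (chr1:78649539-78649788, plus strand): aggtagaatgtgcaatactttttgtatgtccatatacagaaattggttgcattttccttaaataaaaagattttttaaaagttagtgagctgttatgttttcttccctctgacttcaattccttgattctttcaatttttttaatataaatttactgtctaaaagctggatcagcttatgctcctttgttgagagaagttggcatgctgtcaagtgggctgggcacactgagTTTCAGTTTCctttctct
RefSeq promoters matched 7 of the 9 interferon-stimulated genes by symbol, and 4 of the 7 held the motif. It was in 2.48% of the 3423 promoters matched to tested genes and in 3.07% of all 27305 promoters of that length. Of the genes of antigen presentation, 5 matched, and TAPBP and B2M held it. B2M, which did not pass the test, thus held the motif. Among genes without overlap in any line, the motif was in 17 of 526 promoters on the lower side and in 10 of 350 on the higher side. A match describes the letters only.

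Of the 12 largest mean rises, 2 were in genes of RNA splicing, PRPF38B and PRPF3. PRPF38B, at chr1:108692323-108701803, encodes a protein of the spliceosome that takes part in its activation. It had 19 and 19.6 RPKM in EPZ015666-treated BT549, against 9.6 and 9.19 RPKM with DMSO, and 16.1 and 17.1 RPKM in EPZ015666-treated OVCAR8, against 8.79 and 9.01 RPKM with DMSO. In COV362 and MDAMB436 it had 13.7 and 14.6 RPKM in EPZ015666-treated COV362, against 7.0 and 6.98 RPKM with DMSO, and 11.2 and 11.4 RPKM in EPZ015666-treated MDAMB436, against 6.26 and 6.09 RPKM with DMSO. The groups were well apart in each line, with fold changes of 2.05 in BT549, 1.87 in OVCAR8, 2.03 in COV362 and 1.84 in MDAMB436. The shared change was 0.88 ± 0.0328 log2 (limma adjusted p = 2.52e-10), and that at day 3 was 0.90 log2 over BT549 and OVCAR8.

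Of 29 tested genes of the core spliceosome, 14 were higher and 5 lower (23.7% and 27.4% of all tested genes were), 11 and 3 of them without overlap in any line, with a median of 0.11 log2. PRPF3 and PRPF4, proteins of the U4/U6 particle, changed by 0.66 ± 0.0678 and 0.40 ± 0.0618 log2. SNRNP200 and PRPF8, the helicase and the scaffold of the active spliceosome, changed by 0.34 ± 0.0335 and 0.35 ± 0.0476 log2. RBM39, a splicing factor that regulates exon choice, changed by 0.40 ± 0.0303 log2, and the kinase PRPF4B by 0.44 ± 0.0479 log2. SMNDC1, a splicing factor with a Tudor domain, rose by nearly the same amount in each line, 0.54 ± 0.0284 log2, and the difference between lines was not past the threshold (F test adjusted p = 0.757). The U1 particle was divided: SNRPC changed by 0.29 ± 0.0355 log2, whereas SNRPA and SNRNP70 changed by -0.18 ± 0.0356 and -0.11 ± 0.0255 log2. Of 22 SR proteins, hnRNPs and CLK kinases, 6 were higher and 1 lower, so the higher share was close to that of all tested genes. The higher ones included CLK1, a kinase of SR proteins, at 0.22 ± 0.0338 log2. After the correction for GC and gene span, 5 of these 22 were higher and 3 lower. With the lines as the only units, 8 genes of the core spliceosome were higher and none lower, and none of the 22 passed.

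The target itself and 2 of its 3 tested partners were slightly higher. PRMT5 changed by 0.24 ± 0.0391 log2 (limma adjusted p = 0.000193), from 0.10 log2 in OVCAR8 to 0.37 log2 in COV362, with no overlap between treatments in any line. RIOK1 changed by 0.19 ± 0.0303 and COPRS by 0.18 ± 0.0365 log2. WDR77 was at 0.05 ± 0.0627 log2 and not past the threshold (adjusted p = 0.508), being higher in BT549 (0.23) and lower in MDAMB436 (-0.30). Of the other arginine methyltransferases, all 4 tested were called lower, by small mean changes (27.4% of all tested genes were lower). PRMT6 was at -0.23 ± 0.0750, PRMT1 at -0.15 ± 0.0488, PRMT2 at -0.08 ± 0.0250 and CARM1 at -0.07 ± 0.0255 log2. Only PRMT2 was lower in each line: PRMT6 was higher in OVCAR8 without overlap, at 0.21 log2. In COV362, PRMT1 and CARM1 were at 0.007 and 0.015 log2. With the GC and span correction, 3 of the 4 were lower. Among 9 tested genes of Sm proteins and snRNP assembly, 5 were higher and 1 lower (23.7% and 27.4% of all tested genes were). After the correction for GC and gene span, 2 were higher and none lower, and the median transcript GC of this list was 41.0%. The 5 included DDX20, a helicase of the SMN complex, at 0.21 ± 0.0334 log2, and SNRPB, an Sm protein methylated by PRMT5, at 0.22 ± 0.0421 log2. With the lines as the only units, none of the genes of the PRMT5 complex, of the other methyltransferases and of the Sm and snRNP list passed.

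MDM4, CLNS1A, BRCA1 and RBL2 were not among the genes tested on RPKM. They were tested with limma-voom on recovered reads, a choice made after the data were seen, over 10734 genes with a mean of at least 1 CPM (reads scaled to the size of the library) in each line. MDM4 had 34.6 and 34.8 CPM in EPZ015666-treated BT549, against 18.3 and 22.7 CPM with DMSO, and 29.6 and 30.9 CPM in EPZ015666-treated OVCAR8, against 17.4 and 20.3 CPM with DMSO. In the other lines it had 24.9 and 23.6 CPM in EPZ015666-treated COV362, against 26.1 and 26.1 CPM with DMSO, and 50.8 and 50.8 CPM in EPZ015666-treated MDAMB436, against 43.4 and 44.4 CPM with DMSO. The levels were higher in the first 2 lines and in MDAMB436 and lower in COV362, with a shared change of 0.35 ± 0.0987 log2 (adjusted p = 0.00849). CLNS1A changed by -0.10 ± 0.0350 log2 (adjusted p = 0.0257). The tumour suppressor BRCA1, at -0.08 ± 0.0452 log2, and the pocket protein RBL2, at -0.15 ± 0.0835 log2, were not past the threshold (adjusted p = 0.176 and 0.141).

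Several rises were in genes outside splicing. RPS27, at chr1:153990755-153992155, encodes a ribosomal protein with a zinc finger. It had 9.58 and 9.28 RPKM in EPZ015666-treated BT549, against 4.71 and 4.22 RPKM with DMSO, and 8.05 and 9.75 RPKM in EPZ015666-treated OVCAR8, against 3.79 and 3.47 RPKM with DMSO. In COV362 and MDAMB436 it had 11 and 11.2 RPKM in EPZ015666-treated COV362, against 6.36 and 5.48 RPKM with DMSO, and 13.1 and 12 RPKM in EPZ015666-treated MDAMB436, against 6.87 and 6.08 RPKM with DMSO. The groups were apart in each line and the change was even, 0.92 ± 0.0519 log2 (limma adjusted p = 9.23e-09), with no difference between lines past the threshold (F test adjusted p = 0.2). RPS27 has related copies in the genome, and how reads shared with them were counted is not known here.

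TGM2, at chr20:38127387-38166578, encodes transglutaminase 2, a crosslinking enzyme of the matrix and cytosol. It had 1.79 and 1.69 RPKM in EPZ015666-treated BT549, against 0.483 and 0.467 RPKM with DMSO, and 4.11 and 3.91 RPKM in EPZ015666-treated OVCAR8, against 2.1 and 2.18 RPKM with DMSO. In COV362 and MDAMB436 it had 29 and 29.4 RPKM in EPZ015666-treated COV362, against 7.34 and 7.27 RPKM with DMSO, and 1.19 and 1.22 RPKM in EPZ015666-treated MDAMB436, against 0.807 and 0.789 RPKM with DMSO. The mean change, 0.93 ± 0.155 log2, rests most on COV362 (1.86) and least on MDAMB436 (0.29), although no line overlapped. In BT549 and MDAMB436 the DMSO values of TGM2 were under 1 RPKM. In these lines it met the limit for testing only through its EPZ015666 libraries, so its place among the rises depends on that limit. AMIGO2, a cell adhesion protein, changed by 0.82 ± 0.112 log2, and FOSL1, an AP-1 subunit, by 0.67 ± 0.128 log2, of which COV362 gave 1.44. CREBZF, a transcription factor of the ATF family, changed by 0.69 ± 0.0469 log2, AUP1, a protein of lipid droplets and of protein degradation at the endoplasmic reticulum, by 0.65 ± 0.0674 log2, and PHLDA1 by 0.61 ± 0.0442 log2. SNHG1, a host of small nucleolar RNAs, changed by 0.72 ± 0.0824 log2. Of 14 such host genes tested, 6 were higher and none lower (23.7% and 27.4% of all tested genes were). Their median was -0.04 log2 in OVCAR8, and with the lines as the only units 2 were higher.

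Histone genes, as measured in poly(A) RNA, went both ways. HIST2H2AA4 changed by 0.83 ± 0.0970 log2 and its near-identical copy HIST2H2AA3 by 0.59 ± 0.0659 log2, and reads of the 2 copies cannot be told apart with certainty. HIST2H2BE changed by 0.65 ± 0.132 log2, but in COV362 the change was 0.02 log2 and not past the threshold (adjusted p = 0.799). HIST1H2BK, at 0.70 ± 0.125 log2, HIST3H2A, at 0.40 ± 0.140, and HIST1H1C, at 0.38 ± 0.0901, were also higher. The linker histones H1F0 and H1FX, at -0.67 ± 0.0965 and -0.49 ± 0.0400 log2, and H2AFX, at -0.36 ± 0.0513 log2, were lower. HIST1H2BK was at -0.06 log2 in COV362, where both EPZ015666 libraries lay below both DMSO libraries. The list of 13 tested histone genes, which leaves out HIST2H2AA3 and HIST2H2AA4, had 4 higher and 4 lower, near the 23.7% and 27.4% of all tested genes.

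**Figure D3:**
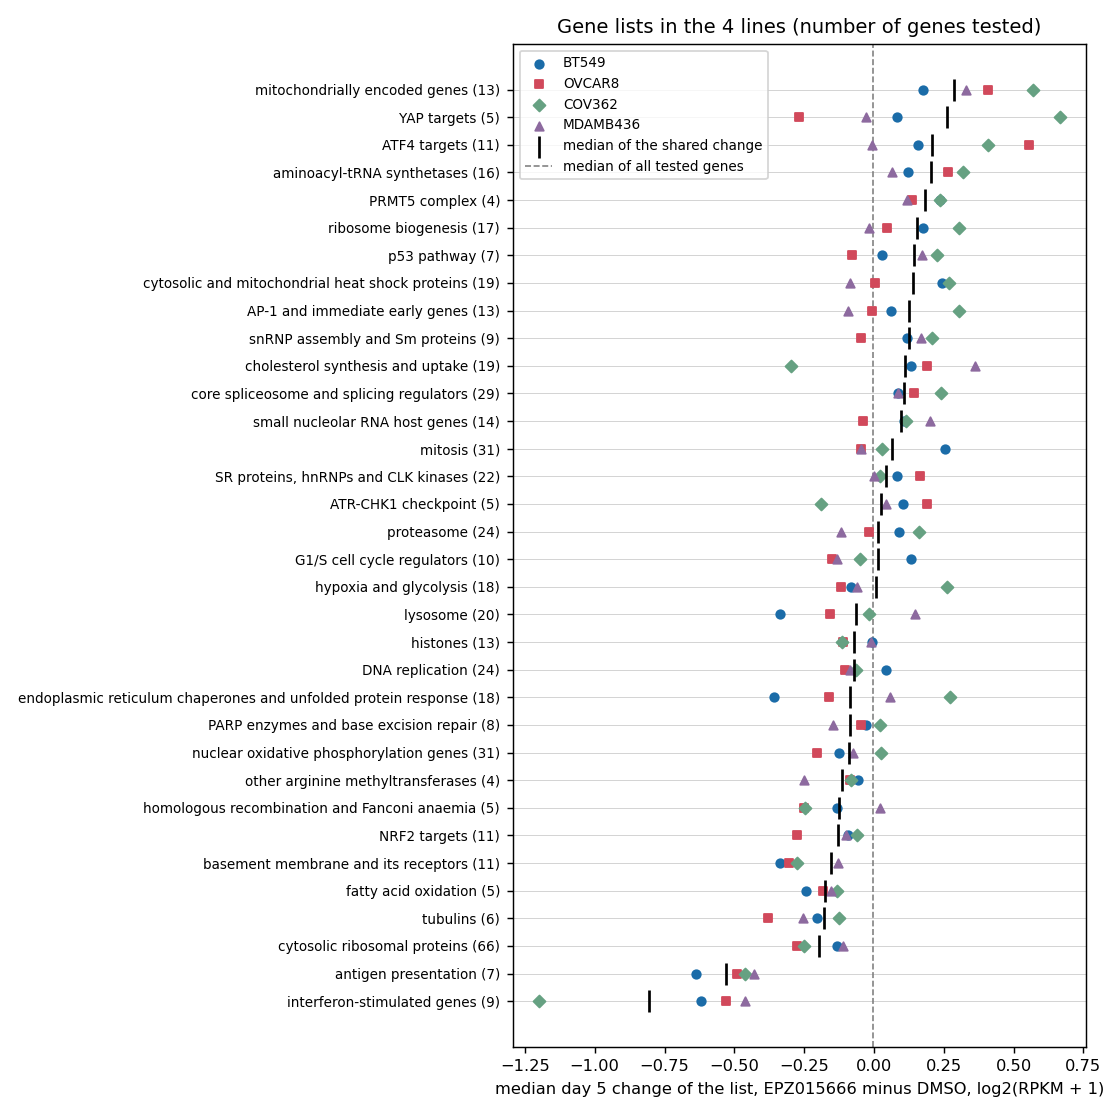
Median day 5 change of each list with at least 4 tested genes, EPZ015666 minus DMSO on log2(RPKM + 1), by line (coloured points) and for the shared change (black ticks), with the number of tested genes in brackets. The interferon and antigen presentation lists lie lowest in all 4 lines, mitochondrially encoded genes lie above the dashed median of all genes in all 4, and lists such as cholesterol synthesis have lines on both sides.

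Most ribosomal protein genes were lower at day 5. Of 66 tested, 48 were lower and 2 higher (RPS27 and RPL21), 36 of the lower ones without overlap in any line, with a median of -0.20 log2, and 23.7% of all tested genes were higher and 27.4% lower. Their falls were shallow: RPL13A changed by -0.53 ± 0.0646, RPL10A by -0.38 ± 0.0570 and RPL13 by -0.31 ± 0.0373 log2. At day 3 the median was 0.02 log2 over BT549 and OVCAR8, with 1 gene higher and none lower. The levels themselves show where the days differ. Under EPZ015666 the median over the list of day 5 minus day 3 was -0.01 log2 in BT549 and -0.02 log2 in OVCAR8, and with DMSO it was 0.21 log2 in both. With the 4 lines as the only units, 3 of the 66 were lower and 1 higher. Of the 362 tested processed pseudogenes of any gene, 108 were lower and 29 higher. The lower share was close to the 27.4% of all tested genes, and the higher share was under 23.7%.

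Most protein-coding transcripts of the mitochondrial genome were higher. Of 13 protein-coding genes, 11 were higher and none lower, 6 of them without overlap in any line, with a median of 0.29 log2. Among all tested genes these shares were 23.7% higher and 9.89% higher without overlap. With the lines as the only units, 6 of the 13 were higher. Of 10 tested mitochondrial tRNA genes 1 was higher and none lower, with a median of 0.08 log2. Neither of the 2 mitochondrial ribosomal RNA genes was past the threshold, with a median of 0.06 log2. MT-ND2, at chrM:4470-5511, a subunit of complex I, had 698 and 655 RPKM in EPZ015666-treated BT549, against 505 and 541 RPKM with DMSO, and 474 and 549 RPKM in EPZ015666-treated OVCAR8, against 274 and 305 RPKM with DMSO. In COV362 and MDAMB436 it had 729 and 792 RPKM in EPZ015666-treated COV362, against 457 and 414 RPKM with DMSO, and 2290.0 and 2365 RPKM in EPZ015666-treated MDAMB436, against 1488 and 1477 RPKM with DMSO. The change was 0.66 ± 0.0621 log2 (limma adjusted p = 1.39e-06), and MT-ND1, another subunit, was at 0.50 ± 0.0566 log2 with no difference between lines past the threshold (F test adjusted p = 0.85). MT-CO3 and MT-ND6 were not past the threshold, at 0.07 ± 0.0892 and 0.25 ± 0.107 log2. The share of all reads from the mitochondrial genome was 1.61% and 1.516% in EPZ015666-treated BT549, against 1.314% and 1.417% with DMSO, and 0.948% and 1.136% in EPZ015666-treated OVCAR8, against 0.825% and 0.917% with DMSO. It was 1.624% and 1.707% in EPZ015666-treated COV362, against 1.376% and 1.253% with DMSO, and 3.031% and 3.003% in EPZ015666-treated MDAMB436, against 2.511% and 2.504% with DMSO. The share was thus higher in both EPZ015666 libraries of each line. Its part in the other results was not tested gene by gene. A rescaling without mitochondrial, ribosomal protein and ribosomal RNA genes left 1125 genes higher and 1189 lower of 4544.

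Nuclear genes of oxidative phosphorylation were more often lower than higher. Of 31 tested, 14 were lower and 2 higher (27.4% and 23.7% of all tested genes were), with a median of -0.09 log2. In COV362 the median was 0.03 log2, and with the lines as the only units 4 were lower and none higher. UQCRC1 and UQCRC2, core subunits of complex III, changed by -0.49 ± 0.0262 and -0.35 ± 0.0392 log2. NDUFV1, which holds the flavin of complex I, changed by -0.44 ± 0.0529 log2, COX5B of complex IV by -0.36 ± 0.0301 log2 and SDHA of complex II by -0.28 ± 0.0292 log2. NDUFB3 and NDUFS3 were the 2 higher genes, at 0.13 ± 0.0403 and 0.08 ± 0.0285 log2.

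Aminoacyl-tRNA synthetases, which charge tRNAs with amino acids, were mostly higher. Of 16 tested, 11 were higher and 1 lower, 9 of the higher ones without overlap in any line, with a median of 0.20 log2. Of all tested genes 23.7% were higher, and 9.89% were higher without overlap. GARS changed by 0.45 ± 0.0623, YARS by 0.41 ± 0.0494, IARS by 0.37 ± 0.0512 and MARS by 0.34 ± 0.0561 log2. QARS went the other way, at -0.43 ± 0.0530 log2, also without overlap in any line. Among 11 tested targets of ATF4, the transcription factor of the amino acid response, 7 were higher and none lower, against the same 23.7% and 27.4%. SLC3A2, the heavy chain of amino acid transporters, changed by 0.50 ± 0.0827 log2, TRIB3 by 0.37 ± 0.0756 log2 and SHMT2, a mitochondrial enzyme of one-carbon metabolism, by 0.25 ± 0.0577 log2. The median of these targets was 0.56 log2 in OVCAR8 and -0.01 log2 in MDAMB436. Of 17 genes of ribosome biogenesis, 11 were higher and 2 lower, 4 of the higher ones without overlap, with PES1 and RRP9 at 0.41 ± 0.0527 and 0.37 ± 0.0804 log2. With the lines as the only units, 3 synthetases, 1 ATF4 target and 1 gene of ribosome biogenesis were higher.

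Genes of the cell cycle and of DNA repair gave mixed changes of small size. MYC was at 0.09 ± 0.0816 log2, E2F1 at 0.08 ± 0.0459 and CDKN1A at 0.13 ± 0.0813 log2, none past the threshold (adjusted p = 0.38, 0.165 and 0.21), and CCND1 was at 0.14 ± 0.0526 log2 (adjusted p = 0.036). The call of CCND1 held in 12 of 29 alternatives, with adjusted p-values up to 0.35. In OVCAR8 its change was -0.14 log2 without overlap, and at day 3 it was lower over BT549 and OVCAR8, at -0.28 log2 (adjusted p = 0.0115). CDKN1B, an inhibitor of cyclin-dependent kinases, was lower, with a change of -0.43 ± 0.0596 log2, and CDK4 changed by -0.28 ± 0.0328 log2. Of 24 tested genes of DNA replication, 10 were lower and 5 higher (27.4% and 23.7% of all tested genes were), with POLD1, the catalytic subunit of polymerase delta, at -0.38 ± 0.0290 and MCM7, of the replicative helicase, at -0.28 ± 0.0426 log2. Of 31 genes of mitosis, 6 were higher and 3 lower, smaller shares than the 23.7% and 27.4% of all tested genes. For DNA replication, 1 gene was lower and none higher with the lines as the only units. TIMELESS, which stabilises stalled replication forks, was at -0.54 ± 0.0324 log2, lower without overlap in any line. It was the 1 lower gene of 5 tested of the ATR-CHK1 checkpoint. TOPBP1 and RAD1 of that list were higher without overlap, at 0.15 ± 0.0280 and 0.07 ± 0.0239 log2. FANCG and FANCI, of the Fanconi anaemia pathway, were at -0.32 ± 0.0586 and -0.25 ± 0.0433 log2, without overlap in any line. They were the 2 lower genes of 5 tested of that pathway and of homologous recombination, and none passed with the lines as the only units.

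The size of the effect differed between lines for most genes. By the F test of the group means fit, 3754 of the 4702 genes differed between lines (79.8%). Among the 465 genes higher in each line without overlap, COV362 gave the largest change for 243, against 74 in BT549, 82 in OVCAR8 and 66 in MDAMB436. Among the 682 lower genes the largest change was in COV362 for 208, OVCAR8 for 203, BT549 for 179 and MDAMB436 for 92. A set of 23 genes had a change of at least 0.5 log2 upwards in 1 line and of at least 0.5 log2 downwards in another, and 16 of these were past the F test's threshold.

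Genes of cholesterol synthesis were in this set. INSIG1, which retains the sterol sensor in the endoplasmic reticulum, had 16.2 and 16.3 RPKM in EPZ015666-treated MDAMB436, against 10.9 and 10.8 RPKM with DMSO, and 5.84 and 5.71 RPKM in EPZ015666-treated COV362, against 12.9 and 12.9 RPKM with DMSO. Its change was 0.54 log2 in MDAMB436 and -1.04 log2 in COV362, with 0.15 in BT549 and -0.19 in OVCAR8. FDFT1, squalene synthase, and MSMO1, a sterol oxidase, were likewise higher in MDAMB436 (0.56 and 0.84 log2) and lower in COV362 (-0.61 and -0.63 log2). The median of the 19 tested genes of this list was 0.36 log2 in MDAMB436 and -0.30 log2 in COV362. CTGF, a secreted target of YAP, was higher in COV362 (1.14 log2) and OVCAR8 (0.86 log2) and lower in BT549 (-0.57 log2). GADD45B, a stress gene, was higher in COV362 (1.11 log2) and lower in OVCAR8 (-0.56 log2). None of these genes was past the threshold for the shared effect.

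The day 3 libraries of BT549 and OVCAR8 show how much of the shared change was present earlier. At day 3, 584 of the 4702 genes were higher (12.4%) and 659 lower (14%) over the 2 lines. Of the 465 genes higher in each line at day 5, 238 were called higher at day 3 (51.2%), and of the 682 lower genes 391 were called lower (57.3%). None was called in the opposite direction. Both EPZ015666 libraries lay beyond both DMSO libraries at day 3 in both lines for 60.6% of the higher and 60.4% of the lower genes, against 17.5% and 17.4% of all tested genes. AGRN was already at -1.41 log2 at day 3 (adjusted p = 9.7e-06), PRPF38B at 0.90, GPAA1 at -1.11 and ACADVL at -1.23 log2. IFI6, at -0.89 log2, BST2, at -0.73, and the interferon list, with all 9 genes lower and a median of -0.60 log2, were lower at day 3 as well. BCAM was at -0.51 log2 at day 3. Without library A or B of DMSO-treated OVCAR8 or library B of EPZ015666-treated OVCAR8 at day 3, the count of higher genes at day 3 was 343, 310 or 320. The 2 days have their own DMSO libraries, and the lines at day 3 are 2 of the 4.

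**Figure D4:**
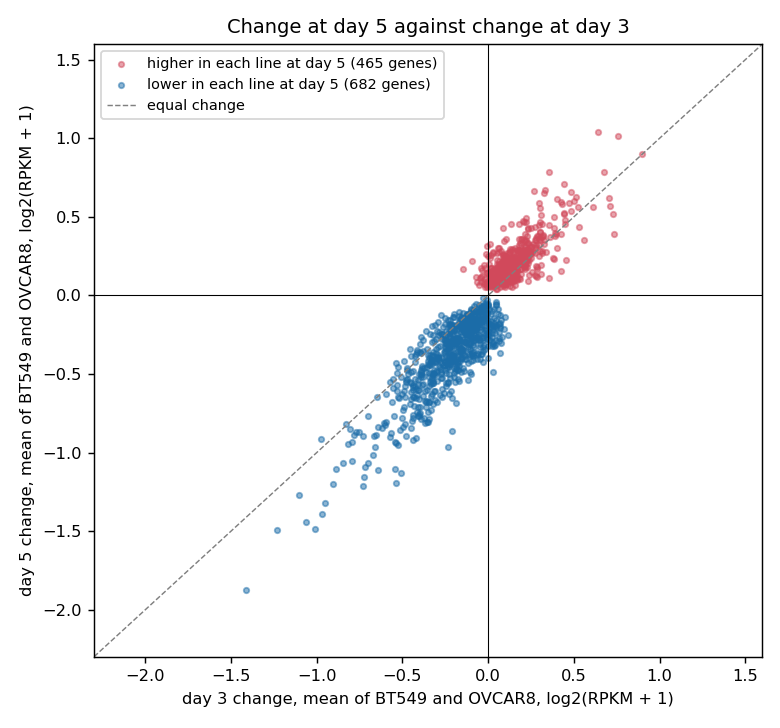
Mean change of BT549 and OVCAR8 at day 5 against that at day 3, EPZ015666 minus DMSO on log2(RPKM + 1), for the 465 genes higher (red) and 682 genes lower (blue) without overlap in each of the 4 lines at day 5. Most points lie on the same side of 0 on both days, and those of AGRN, at the lower left, and PRPF38B, at the right edge, mark the largest changes at day 3.

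The genes that rose and fell differed in base composition and length. The choice of genes did not use GC. Gene span, however, divides the RPKM on which the limit was set, so it bears on which genes were tested. Median transcript GC was 58.0% in the 682 lower genes, 46.3% in the 465 higher genes and 52.2% in all tested genes with a GC value. Over 5 equal bins of the tested genes by GC, the share that was lower in each line ran from 3.75% in the lowest bin to 27.8% in the highest, and the share that was higher ran from 17.6% to 3.11%. The median shared change was 0.07 log2 in the lowest bin and -0.11 log2 in the highest. The median of A minus B in the highest bin ran from -0.05 to 0.09 log2 over the 8 groups, not far below the size of the shared change there. By line, the median change in that bin was -0.0145 log2 in COV362, within this range. It was -0.145 log2 in BT549, -0.165 log2 in OVCAR8 and -0.134 log2 in MDAMB436, outside the range. Median gene span was 10.6 kb in the lower, 23.9 kb in the higher and 14.0 kb in all tested genes. With a correction of each library for GC and span, 1206 genes were higher and 1192 lower, and 550 and 591 were without overlap in each line. Under that correction the core spliceosome had 17 higher and 4 lower, the synthetases 9 and 1, and the ATF4 targets 9 and 0. Ribosome biogenesis had 8 and 2, and the protein-coding genes of the mitochondrial genome 12 and 0. Ribosomal proteins had 3 higher and 46 lower, antigen presentation 0 and 6, and nuclear oxidative phosphorylation 1 and 13. The part of base composition in single genes was not tested beyond this correction.

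**Figure D5:**
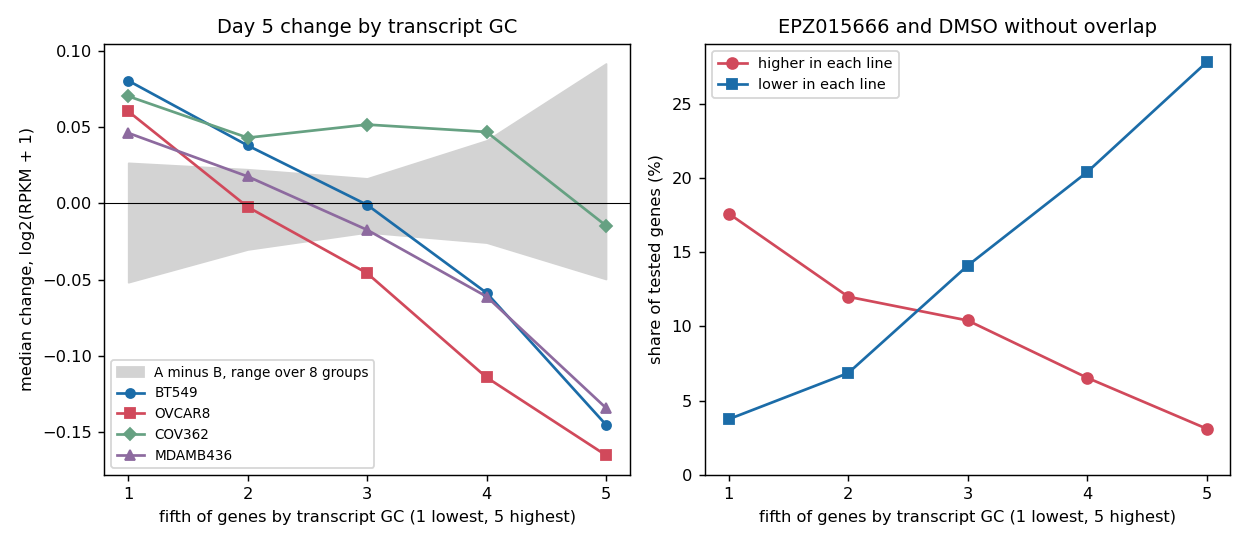
Left, median day 5 change (EPZ015666 minus DMSO, log2(RPKM + 1)) in 5 equal bins of transcript GC in each line, with the range of the A minus B differences of the 8 groups in grey. Right, the share of tested genes higher (red) or lower (blue) in each line without overlap. In all 4 lines the median is lower in the highest bin than in the lowest, and the lower share climbs from 3.75% to 27.8% while the higher share drops from 17.6% to 3.11%.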

How the data were processed

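The labels describe poly(A) RNA extracted with the RNeasy Plus Mini Kit and stranded libraries made by Novogene. The build GRCh38 and the counter featureCounts are named in the submitters' processing notes. The aligner, versions, annotation and strand settings are not known here. The authors deposited RPKM values for 16591 symbols. Each value times the gene's GENCODE v29 span, introns included, gave whole reads for 100.0% of values under 1000 reads (tolerance 0.02 of a read). A span was found for 16559 symbols.

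The shared effect was fitted with limma 3.58.1 in R 4.3.3 on log2(RPKM + 1) with line and treatment as terms, over genes with a mean of at least 1 RPKM in each line. The empirical Bayes step used the trend option, and Benjamini-Hochberg adjusted two-sided p-values under 0.05 were called. A second fit with 1 mean per group gave the effect in each line and the F test between lines. Day 3 was fitted in the same way. Reads recovered from RPKM and span entered limma-voom. Libraries A and B differed by more than sampling noise in each of the 8 day 5 groups (a median gene-wise chi-square of 1.84 to 3.33 times its value under counting error). The fits were run on simulated data in which a changed gene had the same change in each line. The simulated noise was independent and equal in size for all genes and libraries. These data differ from that setting, so the run checks the code and not the calls made here.

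Named genes are the 12 largest rises and 12 largest falls, the 8 largest each way in the weakest line, up to 4 members of each of 38 lists, the 8 clearest genes with opposite changes between lines (at least 0.5 log2 each way), and key genes. The first 2 kinds needed a call, no overlap in each line and a mean of at least 5 RPKM. The text gives a part of these, and other list members were named after their values were seen. Of 879 list members, 800 were in the table and 535 were tested. The lists and genes were chosen with earlier results of these data known. Alternatives were a pseudocount of 0.1, no filter, at least 5 RPKM, median-of-ratios scaling, a replicate block, other units of replication, and leaving out each line and each library. The GC and span correction, the rescaling and limma-voom were chosen after the data were seen. Some genes of these lists are not reported here by name. Gene positions are those of GENCODE v29, and promoters those of RefSeq.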

Additional observations from a re-analysis of the deposited data

Results flagged for a closer look

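The day 5 effect differed between the 4 lines, by the F test of the difference, for 3754 of the tested genes. Among genes with changes of at least 0.5 log2 in opposite directions, the adjusted p of the difference was 2.11e-08 for INSIG1, 9.13e-08 for CTGF, 1.94e-07 for FDFT1, 2.37e-07 for GADD45B and 3.6e-07 for MSMO1. It was 4.88e-07 for EFNB1, a ligand of Eph receptors, 5.77e-07 for the histone variant H2AFJ and 3.28e-06 for CDKN2AIP, a regulator of the p53 pathway.

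Other genes changed in one direction in each line but by amounts that ranged over at least 1 log2. Among the rises the adjusted p of the difference was 7.06e-09 for TGM2, 0.000135 for AMIGO2, 1.53e-06 for FOSL1 and 1.51e-05 for HIST2H2BE. Among the falls it was 2.49e-07 for IFI6, 0.000173 for NAPRT, 2.93e-06 for ACADVL, 3.48e-07 for BST2, 8.53e-07 for LAMA5 and 2.01e-07 for LAMB2. Groups held 2 libraries, so no single library was tested as standing apart within its group.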

How the results depend on the processing

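Counts of calls moved with the genes tested and the unit of replication. With no filter on low values the shared effect gave 2651 higher and 2723 lower genes, the same sign in each line 2479 and 2416, no overlap 1138 and 1340, the difference between lines 9808, and the lines 5781 (BT549), 6659 (OVCAR8), 8176 (COV362) and 5454 (MDAMB436). With a mean of at least 5 RPKM (1545 genes tested) these were 257 and 522, 175 and 385, 96 and 273, 1286, and 942, 1055, 1116 and 882, and day 3 gave 143 higher and 220 lower. The spread within groups alone gave 1708 higher, the 4 line differences as units 134 higher and 362 lower, and limma-voom on recovered reads 2525 and 2724. Without OVCAR8, 755 genes were higher with no overlap in each line, and without MDAMB436, 739. Leaving out 1 library at a time, day 3 gave 310 to 519 higher genes. Of all calls, 46.4% were higher, against 33% with at least 5 RPKM and 27% with the 4 lines as units.

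The medians of 9 list and setting pairs turned sign: AP-1 to -0.0203 and small nucleolar RNA hosts to -0.0227 (at least 5 RPKM), AP-1 to -0.0555 (without COV362), endoplasmic reticulum chaperones to 0.00985, mitosis to -0.00397 and lysosome to 0.045 (without BT549), ATR-CHK1 to -0.0293 (without OVCAR8) and -0.0561 (GC and span correction), and SR proteins to -0.00866 (GC and span correction). The cause was not tested. Median-of-ratios scaling and a pseudocount of 0.1 kept each count of calls within 1.5 times, and no named gene past the threshold turned its direction under any alternative.

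Same-lettered deviations from the group means correlated at 0.032 in BT549, -0.12 in OVCAR8 and -0.0527 in MDAMB436, but at 0.342 in COV362. Whether the letters A and B pair the libraries in COV362 was not tested. With the replicate block the shared counts were 813 higher and 1056 lower, and the day 3 counts were 264 higher and 394 lower. Low genes with long introns fall under the RPKM limit, and with 2 libraries per group small changes in 1 line cannot be shown.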

Other observations

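The shares of all tested genes that were higher and lower, 23.7% and 27.4%, stand against each count that follows. Of 52 tested long intergenic non-coding RNAs, 19 were higher and 4 lower under EPZ015666, with a median of 0.19 log2, and 7 were higher without overlap in each line, against 9.89% of all tested genes. Of 6 tested tubulins 3 were lower and 1 higher: TUBB changed by -0.37 ± 0.0270 and TUBB4B by -0.44 ± 0.0676 log2. In glycolysis and the response to low oxygen, PFKL, a phosphofructokinase subunit, changed by -0.57 ± 0.0485 and GAPDH by -0.32 ± 0.0466 log2, whereas the secreted factors ADM and VEGFA changed by 0.53 ± 0.102 and 0.39 ± 0.0699 log2. Of 11 tested NRF2 targets 5 were lower and 2 higher, with 2 lower and none higher without overlap, the lower ones including the pentose phosphate enzymes TALDO1 at -0.50 ± 0.0284 and TKT at -0.23 ± 0.0569 log2. Among 20 lysosomal genes 7 were lower and 3 higher, and 3 were lower without overlap, close to the shares of all tested genes. They included the proteases TPP1 and CTSA at -0.63 ± 0.0674 and -0.47 ± 0.0778 log2.

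Stress and signalling genes were divided as well. HSPH1, a chaperone of the HSP110 family, changed by 0.51 ± 0.0503 log2 and the small heat shock protein HSPB1 by -0.40 ± 0.0680 log2. Of 19 heat shock genes, 9 were higher and 3 lower (23.7% and 27.4% of all tested genes were). With the lines as the only units, 1 was higher and 1 lower. EDEM1, which sends misfolded glycoproteins to degradation, changed by 0.46 ± 0.0439 log2, while the disulfide isomerase PDIA4 changed by -0.29 ± 0.0543 log2. Of 13 tested genes of the AP-1 list, 4 were higher and 4 lower, close to the shares of all tested genes. JUND was lower, at -0.54 ± 0.0782 log2. FOSL1, FOSL2 and DUSP5 were higher, the last 2 at 0.32 ± 0.0967 and 0.54 ± 0.136 log2. NT5E, the surface nucleotidase that makes adenosine, changed by 0.50 ± 0.0941 log2 and was the YAP target past the threshold of 5 tested. On the X chromosome 2.74% of 219 tested genes were higher in each line without overlap, against 9.89% of all tested genes, and 10.5% were lower, against 14.5%.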
